A study of Mus musculus with 6 samples.

Results

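Neurexophilins, neurexins and neuroligins are proteins of synaptic adhesion, and 9 of their genes were followed here in the mouse retina at postnatal day 7: *Nxph1*, *Nxph2*, *Nxph3*, *Nxph4*, *Nrxn2*, *Nrxn3*, *Nlgn1*, *Nlgn2*, and *Nlgn3*. They are 9 of the 21744 genes of the deposited table, taken by gene symbol, and all 9 were among the 15200 genes whose mean over the 6 libraries reached 0.1 FPKM. The families were chosen by measured values, namely the difference in log2(FPKM + 0.1) between the same 3 control and 3 *Lhx4* null libraries that are described below. For these 9 genes the difference between the groups is therefore given as a description, without a test.

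The study asked how the LIM-homeodomain factor LHX4 acts in retinal bipolar cells, the interneurons that carry signals from photoreceptors to amacrine and ganglion cells. In its *Lhx4* null mice a tdTomato knock-in allele of *Lhx4* was combined with a loxP allele and *Six3*-*Cre*, a Cre line active in the developing retina, so the genotype was *Lhx4* tdT/loxP; *Six3-Cre*. Controls for retinal recordings were wild type or *Lhx4* loxP/+, and the genotype of the control libraries is not given in the sources used here. All 6 libraries came from mice of a mixed C57BL/6J; 129S6 background, 3 per group, each from the retinas of 1 mouse after removal of the pigment epithelium. Expression is given as FPKM, the number of sequenced fragments scaled to transcript length and to how many fragments each library mapped.

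The library labels were first checked against the targeted gene. *Lhx4* (ENSMUSG00000026468, chromosome 1) had 20.9, 23.8, and 19.1 FPKM across control replicates 1, 2, and 3 and 31.2, 30.3, and 29.0 FPKM across *Lhx4* null replicates 1, 2, and 3. It was thus higher in every library labelled *Lhx4* null, by 0.51 in log2(FPKM + 0.1) (SE 0.091, limma adjusted p = 0.098), and did not pass a threshold of 0.05. A value per gene covers all exons and does not show whether the loxP exons were lost, so the groups are called libraries labelled *Lhx4* null and control libraries, and every direction below rests on those labels.

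The depth of the libraries also differed by group. The steps between the lowest FPKM values gave control replicates 1, 2, and 3 relative depths of 95.7%, 76.9%, and 100%, against 46.7%, 57.5%, and 65.9% for *Lhx4* null replicates 1, 2, and 3. Every control library was deeper than every library labelled *Lhx4* null. The deposited table does not hold the number of fragments behind a value, and for a given transcript length the lowest FPKM rest on the fewest.

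Neurexins sit mainly on the presynaptic membrane, where their extracellular part binds partners across the synaptic cleft, and each gene makes a long α form and a shorter β form from separate promoters. Neuroligins are their best known postsynaptic partners: NLGN1 is found mainly at excitatory synapses, NLGN2 at inhibitory synapses, and NLGN3 at both. Neurexophilins are small secreted glycoproteins that bind tightly to α-neurexins but not to β-neurexins. FPKM per gene add up the α and β forms, so the form that a neurexophilin could bind is not resolved in these data.

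Because paralogous genes can compete for reads, their coding sequences were compared. The longest coding sequences of the 4 neurexophilins in GENCODE vM21 were 61.2% to 68.8% identical to each other, and no pair shared an exact run of more than 24 bases. The stretch around the longest run that *Nxph1* shares with another neurexophilin is shown for all 4 genes, to make visible how far the paralogs differ where this match lies. Capitals mark bases that differ from *Nxph1*, and positions count from the first base of the start codon.
Nxph1, coding bases 340 to 387: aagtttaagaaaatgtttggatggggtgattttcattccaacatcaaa
Nxph2, coding bases 310 to 357: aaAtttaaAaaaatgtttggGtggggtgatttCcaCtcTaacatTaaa
Nxph3, coding bases 283 to 330: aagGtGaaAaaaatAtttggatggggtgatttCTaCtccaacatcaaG
Nxph4, coding bases 301 to 348: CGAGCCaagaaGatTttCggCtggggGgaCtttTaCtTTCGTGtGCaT
Over these 48 bases *Nxph2* differed from *Nxph1* at 7, *Nxph3* at 8, and *Nxph4* at 23. Between *Nrxn2* and *Nrxn3* the longest shared run was 23 bases (agcaacaacttcatgggctgcct) at an identity of 68.7%, and the neuroligin pairs shared runs of 17 to 23 bases. These runs are much shorter than the paired-end reads. Only coding sequences were compared, and that of *Nxph1* has 813 bases, beside 4753 exon bases of the gene. Exon bases outside the coding sequences were not compared.

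*Nxph1* (ENSMUSG00000046178) spans 300.6 kb on chromosome 6 (GRCm38, bases 8948431 to 9249032, plus strand), and none of its exon bases is shared with another annotated gene. It was measured at 1.51, 2.54, and 1.51 FPKM across control replicates 1, 2, and 3 and at 0.454, 0.449, and 0.560 FPKM across *Lhx4* null replicates 1, 2, and 3. The groups did not overlap, control replicate 2 stood above the other control libraries, and the libraries labelled *Lhx4* null lay close together. The means were 1.85 ± 0.597 and 0.487 ± 0.0628 FPKM (SD, n = 3 each), a 3.80-fold lower mean level. In log2(FPKM + 0.1) the difference was -1.70 (SE 0.23). On this scale differences of low genes are understated: with 1 FPKM as the pseudocount the same difference was -0.92, and as the ratio of the group means, an alternative added after the data were seen, it was -1.93. Without control replicate 2 it was -1.46. In bulk retina, fewer cells that express a gene and less RNA per cell cannot be told apart.

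*Nxph2* (chromosome 2, bases 23321246 to 23401973, plus strand) is the lowest of the 9 genes in the control libraries. Its values were 0.467, 0.567, and 0.545 FPKM across the control libraries and 0.630, 0.436, and 0.463 FPKM across those labelled *Lhx4* null. The groups overlapped, and the difference of -0.05 in log2(FPKM + 0.1) (SE 0.21) was smaller than its error. In the control libraries *Nxph1* stood 3.52-fold above *Nxph2* without overlap, whereas in the libraries labelled *Lhx4* null the ranges of both genes overlapped and *Nxph2* was the higher of the pair in replicate 1.

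*Nxph3* (chromosome 11, bases 95509845 to 95514570, minus strand) was at 2.80, 3.03, and 2.61 FPKM across the control libraries and at 2.04, 2.46, and 2.19 FPKM across those labelled *Lhx4* null. Here too the groups did not overlap, but the gap between the lowest control library and the highest library labelled *Lhx4* null was small. The log2 difference was -0.32 (SE 0.13), far smaller than that of *Nxph1*. *Nxph4* (chromosome 10, bases 127525473 to 127534559, minus strand) was the most abundant neurexophilin, with 25.9, 24.6, and 25.1 FPKM across the control libraries and 21.4, 29.4, and 22.0 FPKM across those labelled *Lhx4* null. *Lhx4* null replicate 2 lay above every control library and the other 2 below, so that the SD was 4.47 FPKM against 0.686 FPKM in the controls, and the log2 difference was -0.07 (SE 0.12).

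Among the 9 genes, 2 were separated in the lower direction, *Nxph1* and *Nxph3*, meaning that the highest library labelled *Lhx4* null lay below the lowest control library, and 0 were separated in the higher direction. Over all genes tested, such separation occurred for 6.13% in the lower direction and for 8.1% in the higher direction. Because the families were selected on this contrast, nothing is read from that count. It changed when a library was left out: leaving out *Lhx4* null replicate 1 or replicate 2, 3 genes were separated in the lower direction, and in the higher direction 1 gene was separated without *Lhx4* null replicate 1 and 2 genes with replicate 3 left out in its place. Over all 15200 genes the lower share rose as well, to 14.2% and 9.24% without *Lhx4* null replicates 1 and 2, and the higher share to 18.0% without replicate 1 of that group and to 17.2% without replicate 3. The median log2 difference of the 9 genes was -0.05, beside 0.01 over the 15200 genes tested. Of the 9 genes, 7 differed by less than 0.25 in either direction, as did 12331 of the 15200. For these same 7, all but *Nxph1* and *Nxph3*, the difference moved by over 1.5 times or changed sign with 1 library left out.

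**Figure D1:**
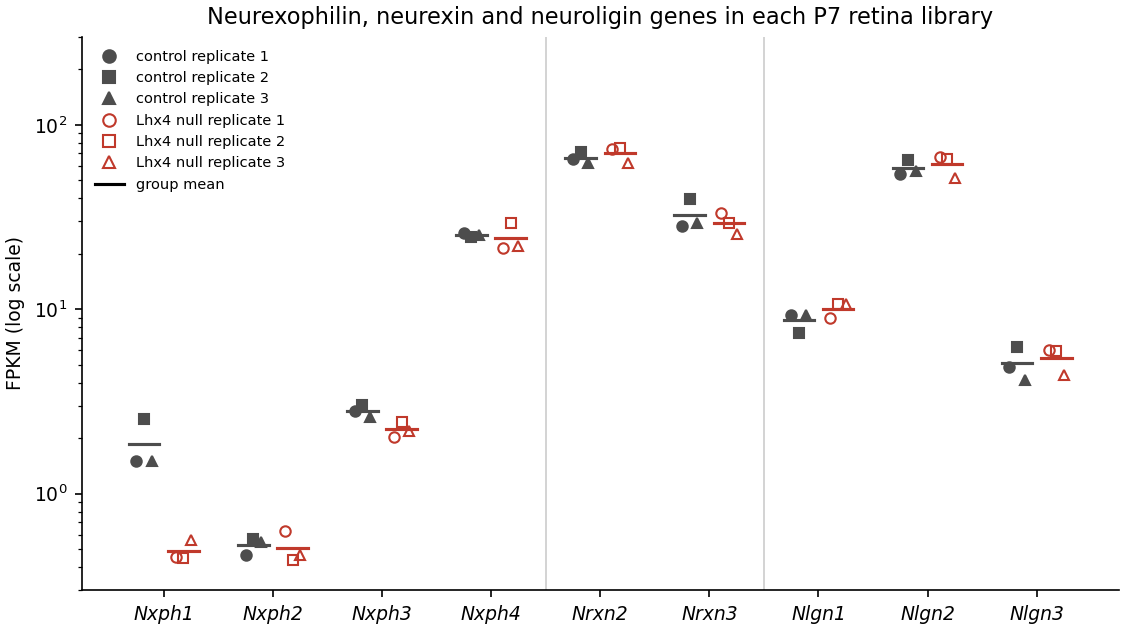
FPKM of the 9 genes on a log axis, with a point for each library (filled, control; open, *Lhx4* null; symbols give the replicate number) and a line at each group mean (n = 3). *Nxph1* and *Nxph3* have no overlap between the groups, and for *Nxph1* the highest library labelled *Lhx4* null (0.560 FPKM) is far below the lowest control library (1.51 FPKM).

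Both neurexin genes were expressed at high levels. *Nrxn2* (chromosome 19, bases 6418731 to 6544169, plus strand) was at 65.1, 71.3, and 61.8 FPKM across the control libraries and at 73.8, 74.5, and 61.8 FPKM across those labelled *Lhx4* null, a log2 difference of 0.08 (SE 0.094). *Nrxn3*, a gene of 1612 kb (chromosome 12, bases 88722876 to 90334935, plus strand), was at 28.4, 39.7, and 29.2 FPKM across the control libraries and at 33.1, 29.2, and 25.7 FPKM across those labelled *Lhx4* null. Its log2 difference was -0.13 (SE 0.14), and control replicate 2 was again the highest library. For both genes the groups overlapped and the differences were within the replicate spread. Counting by strand is not described in the sources used here, and 6.44% of the *Nrxn2* exon bases and 3.48% of the *Nrxn3* exon bases are shared with other annotated genes; the main one at *Nrxn2*, *Slc22a12* on the opposite strand, was between 0.0195 and 0.134 FPKM.

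The neuroligins likewise overlapped between the groups. *Nlgn1* (chromosome 3, bases 25426215 to 26332460, minus strand) was at 9.31, 7.43, and 9.35 FPKM across the control libraries and at 8.93, 10.7, and 10.6 FPKM across those labelled *Lhx4* null, a log2 difference of 0.21 (SE 0.12). *Nlgn2* (chromosome 11, bases 69823122 to 69837784, minus strand) was at 54.4, 64.6, and 56.1 FPKM across the control libraries and at 66.5, 65.5, and 51.7 FPKM across those labelled *Lhx4* null, a log2 difference of 0.06 (SE 0.11). For *Nlgn2*, *Lhx4* null replicate 3 was the lowest of all 6 libraries and *Lhx4* null replicate 1 the highest. *Nlgn3* (chromosome X, bases 101299168 to 101325963, plus strand) was at 4.87, 6.24, and 4.13 FPKM across the control libraries and at 6.00, 5.93, and 4.41 FPKM across those labelled *Lhx4* null, a log2 difference of 0.10 (SE 0.18). Of the *Nlgn1* exon bases, 9.16% are shared with the gene *A830092H15Rik* on the opposite strand, which is not in the table. The value of *Nlgn3* is uncertain in a further way, since 41.2% of its exon bases also belong to the predicted gene *Gm21986* on the same strand, for which no value was used here.

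The order of the levels in the control libraries, in FPKM, was *Nrxn2*, *Nlgn2*, *Nrxn3*, *Nxph4*, *Nlgn1*, *Nlgn3*, *Nxph3*, *Nxph1*, and *Nxph2*. The ranges of *Nrxn2* and *Nlgn2* overlapped over the control libraries, although *Nrxn2* was above *Nlgn2* within each of the 6 libraries. All other neighbours in that order were separate among the controls. Among the libraries labelled *Lhx4* null, *Nxph4* passed *Nrxn3* in replicate 2 and *Nxph2* passed *Nxph1* in replicate 1, and the other neighbours kept this order in all 6 libraries. By mean control level, *Nrxn2* stood above 95.7% of the genes in the table and *Nlgn2* above 94.8%, *Nxph1* above 47.3%, and *Nxph2* above 38.8%. Within a group the libraries were not alike: control replicate 2 was the highest control library for 7 of the 9 genes.

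Summed over its genes, each family was close to level between the groups. The 4 neurexophilins together were at 30.4 ± 0.543 FPKM across the control libraries and 27.5 ± 4.58 FPKM across those labelled *Lhx4* null (SD, n = 3 each). *Nrxn2* and *Nrxn3* together were at 98.5 ± 10.9 and 99.4 ± 10.4 FPKM, and the 3 neuroligins at 72.1 ± 5.33 and 76.8 ± 8.66 FPKM. The log2 ratios of these means, -0.15, 0.01, and 0.09, were within the spread of the libraries, and that of the neurexins was -0.0021 with median of ratios scaling. With 1 library left out, the neurexophilin ratio ran from -0.29 (without *Lhx4* null replicate 2) up to -0.069 when replicate 1 of that group was the one missing, the neurexin ratio ran from -0.043 (without *Lhx4* null replicate 1) to 0.11 (without control replicate 2), and the neuroligin ratio from 0.040 (without *Lhx4* null replicate 2) up to 0.18 when replicate 3 of that group was left out.

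In each family 1 gene supplied most of the FPKM. The shares of a family have a fixed total, so a lower share of 1 gene raises the others. For *Nxph4* the FPKM themselves overlapped between the groups, with means of 25.2 in the control libraries and 24.3 in those labelled *Lhx4* null. *Nxph4* supplied 82.9% ± 2.53 of the neurexophilin FPKM across the control libraries and 88.1% ± 1.46 in those labelled *Lhx4* null (SD, n = 3 each), without overlap. The share of *Nxph1* was 4.91%, 8.27%, and 5.07% in the control libraries and 1.85%, 1.37%, and 2.22% in those labelled *Lhx4* null, without overlap. *Nrxn2* supplied 67.3% and 70.5% of the FPKM of the neurexin pair, and *Nlgn2* 80.8% and 79.6% of the neuroligin FPKM, with overlapping libraries in both cases.

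**Figure D2:**
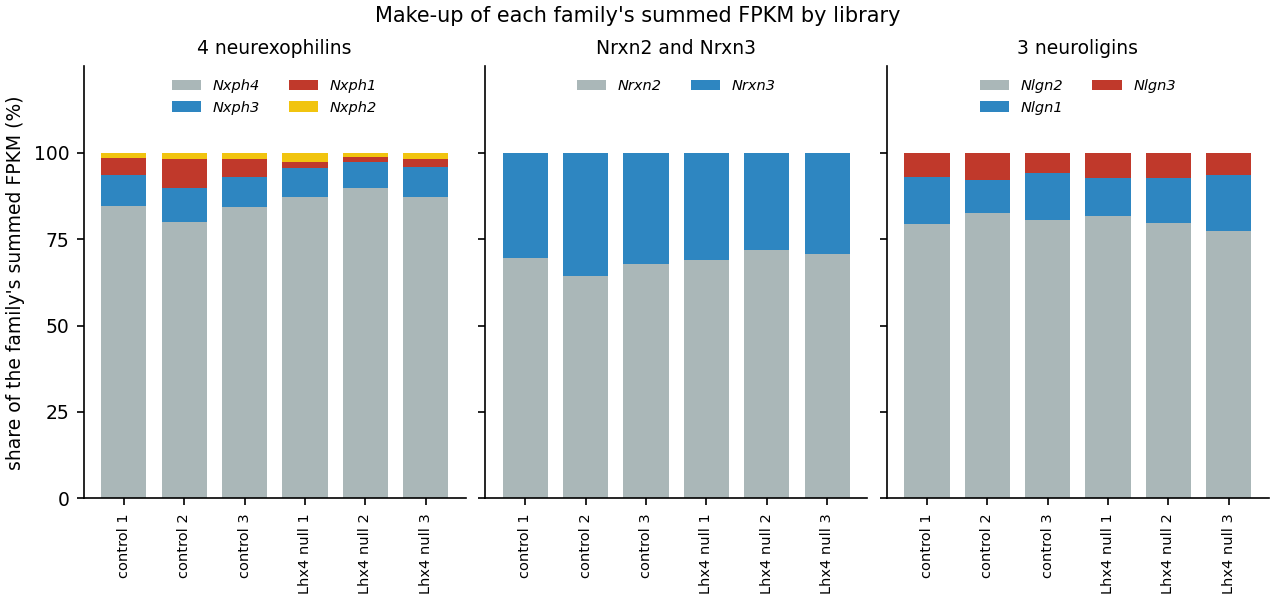
Share of each gene in its family's summed FPKM (bars from 0 to 100%) for each of the 6 libraries. *Nxph4* makes up most of the neurexophilin FPKM in every library, and the *Nxph1* share is 4.91% to 8.27% in the control libraries and 1.37% to 2.22% in those labelled *Lhx4* null.

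Genes with a profile like that of *Nxph1* were then sought over the 6 libraries. Likeness was the root mean square difference between log2(FPKM + 0.1) values, each gene centred on its own mean, among 13415 genes outside the 9 whose mean reached 0.5 FPKM. The 5 nearest were *Grm6*, the glutamate receptor of ON bipolar cells (distance 0.18), *Fezf2*, a zinc-finger transcription factor (0.21), *Grik1*, a kainate receptor subunit of OFF bipolar cells (0.23), *Car8*, a protein of the carbonic anhydrase family without enzyme activity (0.24), and *Glra1*, a glycine receptor subunit (0.27). The median distance over all these genes was 0.90. Since the profile is dominated by the difference between the groups, this ranking is a description of the contrast that chose the families.

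*Grm6* was at 56.0, 74.3, and 51.2 FPKM across the control libraries and at 23.5, 17.9, and 22.7 FPKM across those labelled *Lhx4* null, and control replicate 2 was the highest, as for *Nxph1*. *Car8* had the same feature, with 2.60, 4.54, and 2.57 FPKM across the control libraries and 1.34, 1.12, and 1.28 FPKM across those labelled *Lhx4* null. For *Grik1* the control libraries hardly differed, at 14.0, 14.8, and 14.6 FPKM, and those labelled *Lhx4* null were at 3.72, 3.62, and 4.75 FPKM. The log2 differences of the 5 genes ran from -1.83 (*Grik1*) to -1.26 (*Car8*), and *Nxph1* at -1.70 lies within that range. With 1 FPKM as the pseudocount the 5 genes ran from -1.62 (*Grik1*) to -0.60 (*Glra1*). On that scale *Car8* was at -0.89 and *Nxph1* at -0.92. The other 8 genes of the 3 families were at distances of 0.72 (*Nxph3*) to 1.02 (*Nlgn1*) from *Nxph1*.

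**Figure D3:**
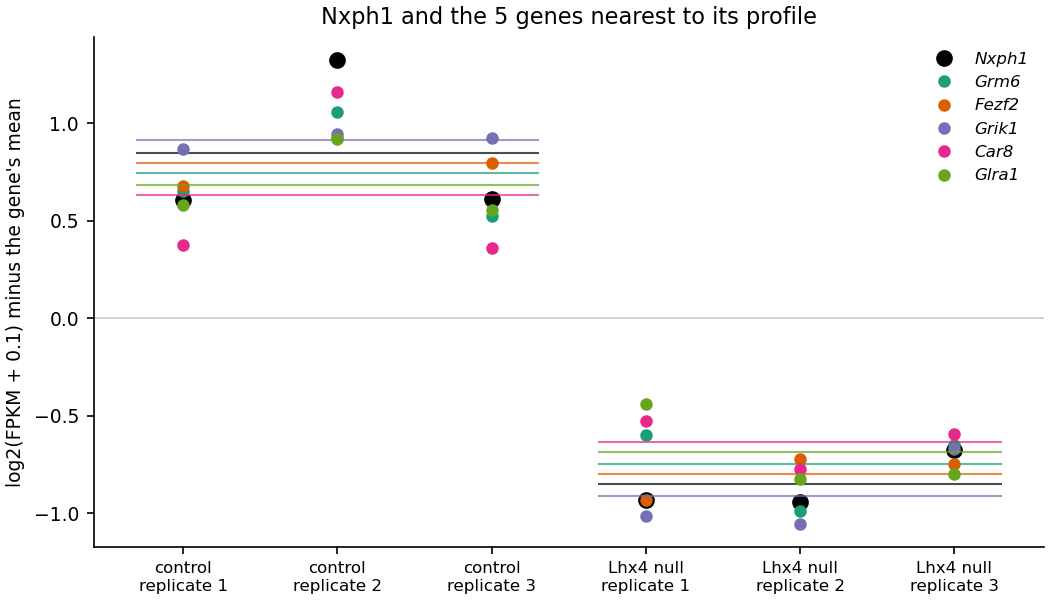
log2(FPKM + 0.1) of *Nxph1* (black) and its 5 nearest genes, each minus its own mean over the 6 libraries; lines are the means of each group (n = 3). All 6 genes lie above 0 in the control libraries and below 0 in the libraries labelled *Lhx4* null, and control replicate 2 is the highest library for all 6, by the widest margin for *Car8*, *Nxph1*, and *Grm6*.

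Markers of retinal cell types moved with the same contrast and are given beside the *Nxph1* values. The counts below stand beside shares over all 15200 genes tested. Of these, 6.13% were separated in the lower and 8.1% in the higher direction. With limma, 3.55% were lower and 4.6% higher at an unadjusted p under 0.05, and 0.224% passed the adjusted threshold. Of 12 bipolar cell genes, 9 had lower values under the *Lhx4* null label with an unadjusted p under 0.05, and 5 of them passed the adjusted threshold (limma). That number fell to 2 without control replicate 1, to 3 without control replicate 2 or control replicate 3, to 2 without *Lhx4* null replicate 1 or *Lhx4* null replicate 2, to 1 without *Lhx4* null replicate 3, to 1 with no mean-variance trend or with the replicate number as a block, and to 0 with no filter on low values, where 9 of the 12 were again lower at an unadjusted p under 0.05. Of the remaining 3 genes, *Vsx1* was higher at 13.4, 14.8, and 13.2 FPKM across the control libraries and 14.4, 19.6, and 16.7 FPKM across those labelled *Lhx4* null (log2 difference 0.28, limma unadjusted p = 0.039, adjusted p = 0.60, with overlap), and *Cabp5* and *Otx2*, the most abundant of the 12, overlapped as well, with differences of -0.22 and 0.07. None of the 12 was at 0 in any library. Their summed level was 897, 994, and 840 FPKM across the control libraries and 641, 717, and 724 FPKM across those labelled *Lhx4* null. Among 8 amacrine cell genes, 4 were separated in the higher direction. The same 4 had an unadjusted p under 0.05, and 0 passed the adjusted threshold (limma). The summed level of these 8 genes, of which *Pax6* was the most abundant, was 416, 435, and 406 FPKM and 477, 500, and 448 FPKM. That of 5 cone genes, led by *Gngt2*, was 470, 323, and 459 FPKM and 527, 569, and 651 FPKM, but these genes did not move together: 3 were separated in the higher direction, of which *Opn1sw* passed the adjusted threshold (log2 difference 0.88, limma adjusted p = 0.031), *Gngt2* overlapped, and *Arr3* was lower, at 28.7, 29.7, and 30.2 FPKM across the control libraries and 16.9, 8.53, and 12.7 FPKM across those labelled *Lhx4* null (log2 difference -1.27, limma adjusted p = 0.077). The call of *Opn1sw* was lost with each single library left out except *Lhx4* null replicate 1 (adjusted p from 0.062 to 0.15), and with no filter, no trend, or quantile normalization. For 3 fibroblast genes, led by *Col1a2*, it was 2.15, 2.26, and 1.38 FPKM and 4.37, 4.50, and 5.02 FPKM. Almost all of this sum is *Col1a2* (log2 difference 1.26, limma adjusted p = 0.049), whose call was lost with any 1 of the 6 libraries left out (adjusted p from 0.083 to 0.21) and with no filter, no trend, the replicate block, a pseudocount of 0.01 FPKM, or another scaling; *Col1a1* overlapped, and *Dcn*, below the filter and not tested, was separated in the higher direction at 0.0169, 0.0211, and 0.0323 FPKM across the control libraries and 0.139, 0.113, and 0.116 FPKM across those labelled *Lhx4* null. None of the amacrine, cone, or fibroblast genes was at 0 in any library. The sums of the other 8 of the 12 marker lists overlapped between the groups, but of their 30 genes 4 were separated, all in the higher direction: *Pou4f1* and *Pou4f2* (ganglion cells), *Mlana* (pigment epithelium), and *Csf1r* (microglia). Of the same 30, 4 were higher and 1 lower at an unadjusted p under 0.05, and 0 passed the adjusted threshold (limma). Beside the shares over all genes tested, nothing is read from these counts among the 30. The part that these cell types, or the depth of the libraries, had in the *Nxph1* values was not tested.

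RefSeq windows of 300 bases around transcription starts (GRCm38.p6, from 250 before to 50 after the start) were matched for 5 of the 9 genes, 8 windows in all: *Nxph1*, *Nxph2*, *Nlgn2*, *Nlgn1* with 2 windows, and *Nrxn3* with 3. The *Nxph1* window, chr6:8949769-8950068 on the plus strand, lies wholly within an exon that GENCODE vM21 begins further upstream, and 64.0% of its bases are G or C. On both strands, the homeodomain core TAATTA occurred in 0 of the 8 windows and in 5.29% of all 32851 promoter windows. The letters GGATTA, the core bound by OTX2 and CRX, occurred in 0 of the 8 windows and in 7.06% of all. CCAAT occurred in 2 of the 8, at 2 places in the *Nxph1* window and at 1 place in a window of *Nlgn1*, against 37.4% of all windows. The E-box CANNTG occurred in 5 of the 8 and in 72.3% of all. TAATTA and GGATTA can share bases with each other where they meet. These are matches of letters, and from their absence nothing is drawn about any factor.

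The neurexins and neuroligins have many other partners, and 57 of their genes in 15 roles were examined as a list. Of these, 56 were tested in the fit over all genes; *C1ql4* was below the filter. With limma, 0 of the 56 passed an adjusted p of 0.05, and an unadjusted p under 0.05 was reached by 7, of which 4 were lower and 3 higher under the *Lhx4* null label. Over all 15200 genes tested, an unadjusted p under 0.05 was found for 3.55% in the lower and 4.6% in the higher direction, and 0.224% passed the adjusted threshold, 34 genes. The number of partner genes with an unadjusted p under 0.05 was 11 without *Lhx4* null replicate 1 and again 11 when replicate 3 of that group was left out instead; over all 15200 genes the share rose too, from 8.15% to 13.0% and 11.3%. Separation of all libraries of a group from all of the other was seen for 8 of the 56 in the lower and 4 in the higher direction, beside 6.13% and 8.1% of all genes tested. The median log2 difference of the 56 genes was -0.01, and 46 of them differed by less than 0.25 in either direction, as did 12331 of all 15200. For 17 of the 23 partner genes named below, leaving out 1 library moved the difference by over 1.5 times, and among the 7 with an unadjusted p under 0.05 this held for 1 (*Dlgap3*, 0.15 without *Lhx4* null replicate 2).

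Ligands that, like the neurexophilins, meet neurexins outside the cell include the carbonic anhydrase-related proteins. *Car10*, a secreted member of that group, was at 22.6, 27.2, and 21.3 FPKM across the control libraries and at 19.2, 17.3, and 16.2 FPKM across those labelled *Lhx4* null, a log2 difference of -0.43 (SE 0.11, limma adjusted p = 0.35, lower in 3 of 3 libraries). *Lrrtm4*, a leucine-rich repeat transmembrane protein of the postsynaptic side, was at 1.68, 2.71, and 1.88 FPKM across the control libraries and at 1.24, 1.23, and 1.22 FPKM across those labelled *Lhx4* null. Its difference was -0.69 (SE 0.19, limma adjusted p = 0.38), the libraries did not overlap, and control replicate 2 was again the highest. The other 3 genes of that group overlapped between the groups, with *Lrrtm1* the most abundant at 5.70 ± 0.210 and 5.27 ± 0.546 FPKM (SD, n = 3 each).

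Cerebellins bridge neurexins to the δ-type glutamate receptors. *Cbln2*, the most abundant cerebellin, was at 11.6, 11.6, and 11.3 FPKM across the control libraries and at 11.1, 10.8, and 9.73 FPKM across those labelled *Lhx4* null, separated by a small gap (log2 difference -0.13, limma adjusted p = 0.71). The receptor gene *Grid1* was at 3.00, 4.80, and 3.16 FPKM across the control libraries and at 2.79, 2.64, and 2.93 FPKM across those labelled *Lhx4* null, a difference of -0.35 that rests in good part on control replicate 2 and was -0.14 without it. Neither passed the test. *Cbln3*, the cerebellin with the largest difference (0.24, SE 0.26), was at 0.224 ± 0.0381 and 0.287 ± 0.0927 FPKM (SD, n = 3 each) and overlapped; without *Lhx4* null replicate 2 the difference was 0.051. The C1q-like genes and the latrophilins had 0 genes with an unadjusted p under 0.05 among 3 tested each; their most abundant genes were *C1ql1*, at 29.3 and 32.0 FPKM across the control libraries and those labelled *Lhx4* null, and *Adgrl1*, at 43.1 and 46.5 FPKM. Calsyntenins were led by *Clstn1*, at 215 and 241 FPKM the most abundant of the partner genes, with a log2 difference of 0.16 (SE 0.090), and *Clstn2*, much lower at 3.90 and 3.34 FPKM, had the largest difference of the 3, -0.23 (SE 0.15), which was -0.090 without *Lhx4* null replicate 2 and reached -0.35 when replicate 3 of that group was missing. *Dag1*, which encodes dystroglycan, and *Igsf21* differed by 0.21 and 0.27 without separation of the groups, and by 0.13 and 0.066 without *Lhx4* null replicate 2.

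The contactin-associated proteins are relatives of the neurexins. *Cntnap5a* had the largest difference of the 56 tested partner genes: it was at 1.86, 1.60, and 1.98 FPKM across the control libraries and at 0.954, 0.936, and 1.18 FPKM across those labelled *Lhx4* null. The difference was -0.77 (SE 0.16, limma adjusted p = 0.17, lower in 3 of 3 libraries), and control replicate 2 was here the lowest control library. This rank did not hold throughout. Without control replicate 1, *Lrrtm4* was at -0.83 and *Cntnap5a* at -0.75, and without control replicate 3 they were at -0.75 and -0.71. With 1 FPKM as the pseudocount, *Lin7a* at -0.480 differed slightly more than *Cntnap5a* at -0.475. *Cntnap2*, the most abundant of the 7 genes, was level at 31.6 and 31.7 FPKM.

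Inside the presynaptic terminal, neurexins bind a scaffold of CASK, the Mint proteins, and the LIN7 (Veli) proteins, and of its 6 genes tested 1 was higher and 1 lower at an unadjusted p under 0.05. *Apba2*, which encodes Mint2, was at 43.2, 38.8, and 41.4 FPKM across the control libraries and at 47.2, 63.8, and 53.7 FPKM across those labelled *Lhx4* null (log2 difference 0.41, SE 0.11, limma adjusted p = 0.38). *Lin7a* was at 17.0, 19.4, and 16.1 FPKM across the control libraries and at 13.9, 10.6, and 12.4 FPKM across those labelled *Lhx4* null (log2 difference -0.51, SE 0.12, limma adjusted p = 0.23). The groups did not overlap for either gene, and neither passed the adjusted threshold. Of the RNA-binding proteins that regulate neurexin splicing, *Khdrbs3* was the most abundant at 62.5 and 60.8 FPKM, and *Khdrbs1* had the largest difference, 0.12; none of the 3 had an unadjusted p under 0.05.

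On the postsynaptic side, MDGA proteins bind neuroligins and block their contact with neurexins. *Mdga1* was at 7.81, 5.42, and 7.67 FPKM across the control libraries and at 6.62, 11.6, and 9.11 FPKM across those labelled *Lhx4* null, overlapping, with a log2 difference of 0.36 (SE 0.21) that was 0.17 without *Lhx4* null replicate 2, 0.19 without control replicate 2, and 0.57 when *Lhx4* null replicate 1 was left out. Among 11 excitatory scaffold genes, *Dlg4*, which encodes PSD-95, was the most abundant at 192 ± 18.9 and 168 ± 39.3 FPKM, with overlapping libraries. *Dlgap2* was at 0.756, 1.02, and 0.839 FPKM across the control libraries and at 1.38, 1.13, and 1.15 FPKM across those labelled *Lhx4* null (log2 difference 0.45, limma adjusted p = 0.59). *Dlgap3*, which like *Dlgap2* encodes a protein that links PSD-95 to SHANK proteins, was at 12.3, 12.3, and 11.3 FPKM and at 13.5, 16.0, and 13.0 FPKM (log2 difference 0.23, limma adjusted p = 0.60). Both were higher in 3 of 3 libraries without passing the adjusted threshold. Of the 4 genes of the inhibitory scaffold, where NLGN2 acts, the largest difference was 0.08, that of *Lhfpl4*, and 0 had an unadjusted p under 0.05.

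**Figure D4:**
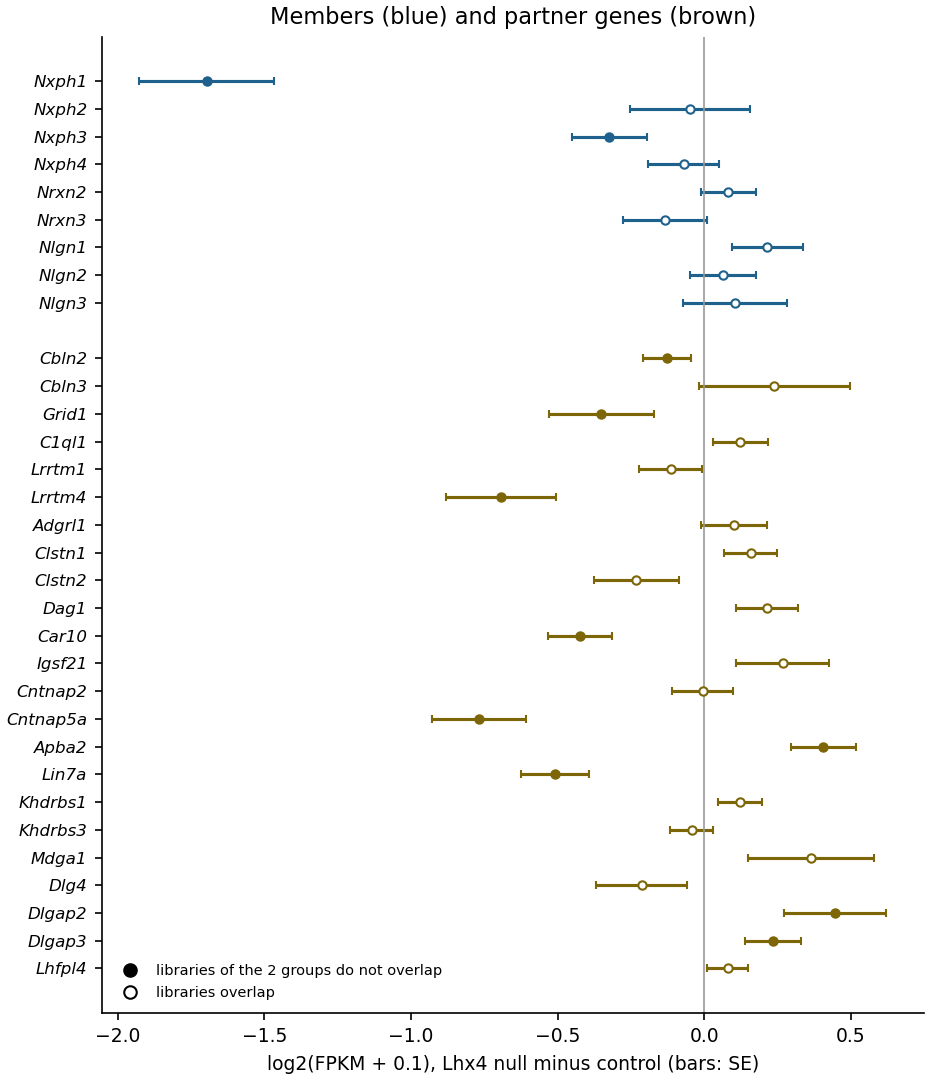
Difference in log2(FPKM + 0.1), libraries labelled *Lhx4* null minus control (n = 3 each), for the 9 genes of the 3 families (blue) and 23 partner genes (brown), with bars for the SE; filled points mark genes whose libraries do not overlap between the groups. *Nxph1* at -1.70 is farther from 0 than all other genes drawn, of which the next is *Cntnap5a* at -0.77.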

How the data were processed

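Retinal RNA was sequenced at postnatal day 7, from 3 control mice and 3 *Lhx4* null mice. The deposited values are FPKM, which the authors made with TopHat2 and Cufflinks on GRCm38, per the submitters' processing notes; versions, annotation, and use of strand are not given in the sources used here. A linear model of log2(FPKM + 0.1) with a mean-variance trend was computed in limma 3.58.1 (R 4.3.3) for the 15200 of 21744 genes whose mean reached 0.1 FPKM, and p-values (two-sided) were adjusted by Benjamini-Hochberg over all genes tested. The fit was tested on simulated data whose changes were larger than the differences of all partner genes, with no difference in depth between groups. It therefore says nothing on how well differences of the partner genes' size are found. Relative depth came from the most frequent ratio of low values between libraries (53 to 151 genes per pair). For 6 repeated symbols the entry of highest mean was used. The families, the lists, and their rules were chosen with earlier results of these data known. Named were *Lhx4*, the 9 genes, partner genes with an unadjusted p under 0.05, the most abundant and most different gene of each role, the 5 genes nearest *Nxph1*, and cell type markers by list; *Slc22a12*, *C1ql4*, and the choice of single markers came after their values were seen. Gene positions and coding sequences are from GENCODE vM21 and promoters from RefSeq, both on GRCm38; Biopython 1.88 aligned the coding sequences. Alternatives changed the pseudocount, the filter, the scaling, the trend, the replicate block, and the libraries.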

Additional observations from a re-analysis of the deposited data

How the results depend on the processing

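The differences of the 9 genes kept their sign and moved by less than 1 SD of the libraries with other pseudocounts, scalings, filters, and no trend, except that *Nxph1* moved further with a pseudocount of 1 FPKM (-0.92) and *Nxph2* was not tested with a filter at a mean of 1 FPKM. With libraries left out in turn, *Nxph1* ranged from -1.82 to -1.46, the median of the 9 genes ranged from -0.05 to 0.02, and *Nxph2*, *Nxph4*, *Nrxn3*, and *Nlgn3*, whose differences were within their SE, changed sign with at least 1 library left out. The count of genes separated in the higher direction ranged from 0 to 2. The share over all genes ranged from 10.9% to 18.0%, beside 8.1% with all 6 libraries. The count of partner genes with an unadjusted p under 0.05 ranged from 5 to 11. Genes called over the whole table, 21 lower and 13 higher, ranged from 12 to 19 lower and from 2 to 12 higher. Without a filter on low values 0 were called lower and 0 higher, with 1507 of 21744 genes at an unadjusted p under 0.05 (limma). With the replicate number as a block, 11 were called lower and 4 higher. Deviations of same-numbered libraries correlated at -0.13, -0.00020, and 0.16, and 2 of 6 libraries correlated best with their own number. With 3 libraries per group this cannot show whether same-numbered libraries share more than a number. With libraries left out, 14 of the 56 partner genes tested changed sign, all with a difference of at most 0.10, among them 2 of the 23 named: *Cntnap2* ranged from -0.085 to 0.10 and was positive (0.035) without control replicate 2 as well, and *Adgrl1* ranged from -0.023 to 0.18; the cause was not tested. No partner gene passed an adjusted p of 0.05 under any of these alternatives (lowest 0.13). Depth limits the lowest FPKM most, and the libraries labelled *Lhx4* null were the shallower ones.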
